A study of Drosophila melanogaster with 12 samples.

Results

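These 65 genes of the adult *Drosophila melanogaster* intestine had opposite differences in 2 experiments on the same gene, which was knocked down in one and deleted in the other. Their RNA was lower after enterocyte knockdown of *dMPC1* and higher in whole-animal *dMPC1* mutants, each against its own control. A gene was a member if the mean of the *dMPC1* RNAi libraries was at least 0.8 below the mean of the *mCherry* RNAi libraries on the log2 scale, the mean of the mutants was at least 0.8 above the precise excision control, and the means of the *mCherry* RNAi and the mutant libraries both reached 30 normalised reads. A single normalised read was added to each mean before the ratio was taken. Genes whose names begin with Lys, Mal-, Cyp or Gst were dropped by name. The limits were passed by 71 genes, of which 6 were dropped by name (*LysS*, *LysD*, *LysE*, *GstE9*, *Cyp4d14* and *Mal-B1*), so 65 of the 9981 genes in the tables were members. The values of both experiments chose these genes, so their levels and differences are given below as a description, without a test.

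The MPC, or mitochondrial pyruvate carrier, is a pair of proteins, Mpc1 and Mpc2, in the inner mitochondrial membrane that lets pyruvate into the matrix, where it feeds the tricarboxylic acid cycle. Enterocytes are the absorptive cells of the fly midgut: they secrete digestive enzymes, take up sugars, lipids and ions, and conjugate and export foreign compounds. Many of the genes described here encode such enzymes and transporters, beside hormones, receptors and components of the gut lining.

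Whole intestines were dissected, with 15 pooled in each RNAi replicate, and their RNA was sequenced. In the RNAi experiment *myo1A-GAL4*, which is active in enterocytes, drove RNAi of *dMPC1* or of *mCherry*, which flies lack, with *Tub-GAL80ts* holding RNAi off until adulthood. It was switched on in adults of 4 to 5 days and kept on for 7 days. In the mutant experiment the flies carried the deletion alleles *dMPC1[1]* and *dMPC1[2]* over each other, so that every cell of the animal was mutant. Their controls carried a precise excision of the P element on both homologues, and both groups were aged 7 to 10 days. All groups carry the strain label w1118, and neither sex nor the number of separate crosses is given in the labels. Of 12 labelled libraries 8 were analysed: replicates 1 and 3 of *myo1A > mCherry-RNAi*, all 3 of *myo1A > dMPC1-RNAi*, replicate 2 of the precise excision control and replicates 1 and 2 of the *dMPC1* mutant. The other 4 were not analysed here. Unless the number is given, values below follow this order. The control of the mutants was therefore 1 library, and its error cannot be measured.

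Reads in genes ranged from 7362983 in mutant replicate 2 to 21918521 in mutant replicate 1. The deposited values were read counts divided by 1 size factor a library, here called normalised reads, and they can be compared across all 8 libraries. *Mpc1* itself, the targeted gene, had 3114 and 2936 in *mCherry* RNAi, 841, 803 and 819.5 in *dMPC1* RNAi, 1997 in precise excision and 5.31 and 13.7 in mutants, which fits the labels. The enterocyte gene *Myo31DF* was between 5122 and 6579 in all 8 libraries, but other enterocyte markers were less even. *GATAe* had 3017 and 2992 in *mCherry* RNAi and 1657, 1801 and 1921 in *dMPC1* RNAi. In the same groups *nub* was higher with *dMPC1* RNAi (1976 and 1923, then 3134, 2588 and 2709). So was *mex1* (3153 and 3301, then 4331, 3689 and 4084). The summed list of 18 enterocyte and gut region genes was 284217 to 305154 in *mCherry* RNAi, 143585 to 162568 in *dMPC1* RNAi, 210003 in precise excision and 165549 to 204602 in mutants. Most of that sum was the trypsin gene *betaTry*, and without it the other 17 genes summed to 87796 to 92112 in *mCherry* RNAi and 81576 to 101629 in *dMPC1* RNAi, which overlap. These 17 genes summed to 93757 in precise excision and to 66680 and 73360 in mutants, both below every other library. *dMPC1* RNAi replicate 1 stood apart from replicates 2 and 3: *osk*, a germline RNA, was at 90.5 against 0.96 and 2.45, the glucosidase gene *tobi* at 6686 against 726 and 392, and the summed heat shock genes at 10872 against 36365 and 37720. That sum was 11091 and 11385 in *mCherry* RNAi. Without *Hsc70-3*, the most abundant of these genes, it was 2802 and 3101 in *mCherry* RNAi and 6601, 25333 and 26881 in *dMPC1* RNAi. The precise excision library had the highest summed levels of the visceral muscle list (47554, against 26653 to 32414 in the other libraries) and of the hemocyte list (8248, against 3226 to 4462). The 13 progenitor cell genes summed to 1615 and 1737 in *mCherry* RNAi and to 3270, 2980 and 3019 in *dMPC1* RNAi. They summed to 2420 in precise excision and to 2111 and 1557 in mutants. These sums ran opposite to the members in both experiments, and their part in the values of the members was not tested. In whole intestines, fewer cells of a type and less RNA per cell cannot be told apart.

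Among the 65 members, the RNAi difference ran from -4.08 to -0.80 with a median of -1.37, and the mutant difference from 0.80 to 7.42 with a median of 1.26. Over all genes tested the corresponding medians were 0.00 and 0.01. Both differences were at least 1 in size in 44 members, at least 1.5 in 13 and at least 2 in 6. Every *dMPC1* RNAi library was below both *mCherry* libraries in 62 of 65 members, an order found in 31.8% of all genes tested, and both mutants were above the control in 64, an order found in 41.2%. Both orders together were seen in 62 members and in 13.6% of the genes tested in both experiments. With limma, where a call took an adjusted p no higher than 0.01 and a log2 difference of 0.6 or more, 36 members were called lower with RNAi (6.71% of all genes tested) and 28 higher in the mutants (1.31%), with 19 called in both. Since the rule used both contrasts, nothing is read from these counts. At the same limits, 101 genes had the mirror pattern, higher with RNAi and lower in mutants, 110 were lower in both and 41 were higher in both.

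**Figure D1:**
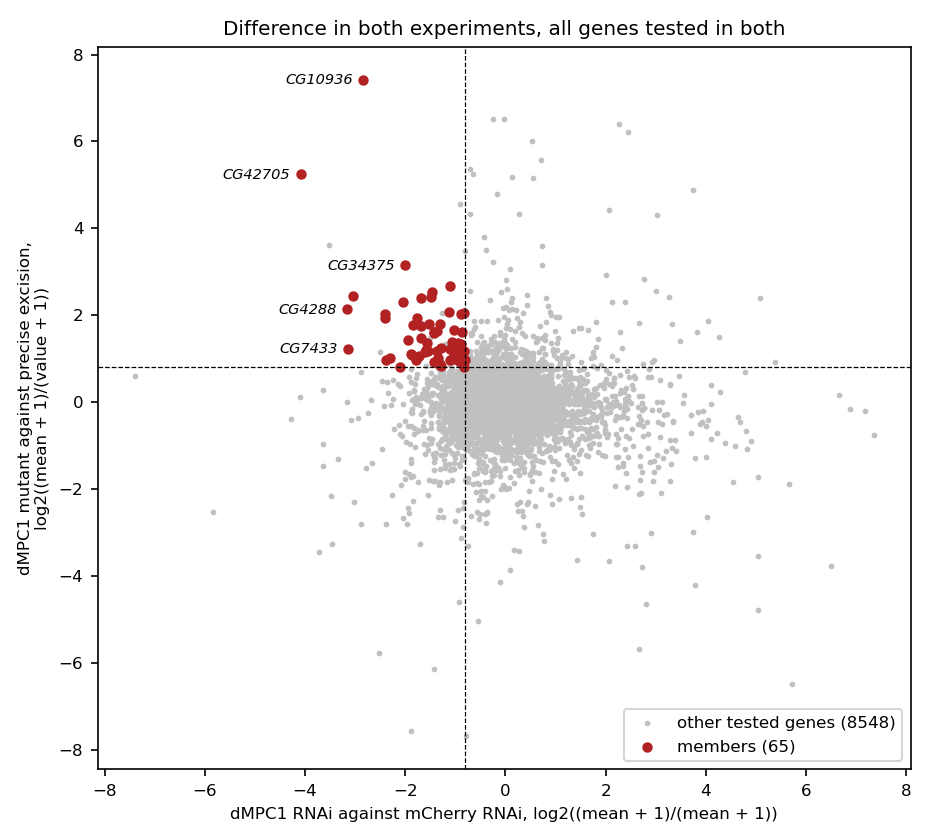
Difference with *dMPC1* RNAi (x axis) against difference in *dMPC1* mutants (y axis), both log2 ratios with 1 read added, for the 8613 genes tested in both experiments; red points are the 65 members, dashed lines the limit of 0.8 in each direction. Members fill the upper left corner by construction, grey points there fell short of the minimum level of 30 or were dropped by name, and *CG10936* and *CG42705* lie highest at 7.42 and 5.24.

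The limits passed close by other genes. On the RNAi axis *Cda9* (-0.80) and *CG15544* (-0.83) were just inside, and *CG6337* (-0.76) and *mtg* (-0.76) just outside. On the mutant axis *Psf2* (0.80) and *CG15661* (0.81) were just inside, and *CG7322* (0.796) and *drl* (0.79) just outside. Of the levels, *CG15353* (30.9) and *Vmat* (31.3) barely reached the minimum in *mCherry* RNAi, where *beat-IIa* (24.0) and *CG13299* (15.6) missed it. In the mutants *CG34375* (36.4) and *CG42705* (36.8) were nearest above it, and *Kal1* (25.6) and *slow* (10.7) below.

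Opposite signs hid more than 1 order of the 4 groups. The mutants were the highest group in 37 members and the *mCherry* libraries in 28, while *dMPC1* RNAi was the lowest in 34 and the precise excision control in 31. In 29 members the mutants were highest and RNAi lowest. In 23 others *mCherry* was highest and the precise excision control lowest, in 8 the mutants were highest and the precise excision control lowest, and in 5 *mCherry* was highest and RNAi lowest. The precise excision library lay below both *mCherry* libraries in 55 of 65 members, against 43.1% of all genes tested in both experiments, an excess that the rule favours, since it asks for high *mCherry* and low precise excision values. Compared with the 3 RNAi libraries it was below all of them in 22 members, above all of them in 25 and among them in 18. The mutants lay above both *mCherry* libraries in 27 members, below both in 21 and overlapped them in 17. The controls of the 2 experiments differ in genotype, in RNAi treatment and in the ages given above. Which of these the gaps between the controls follow was not tested. Each control is set only against its own group in any test.

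**Figure D2:**
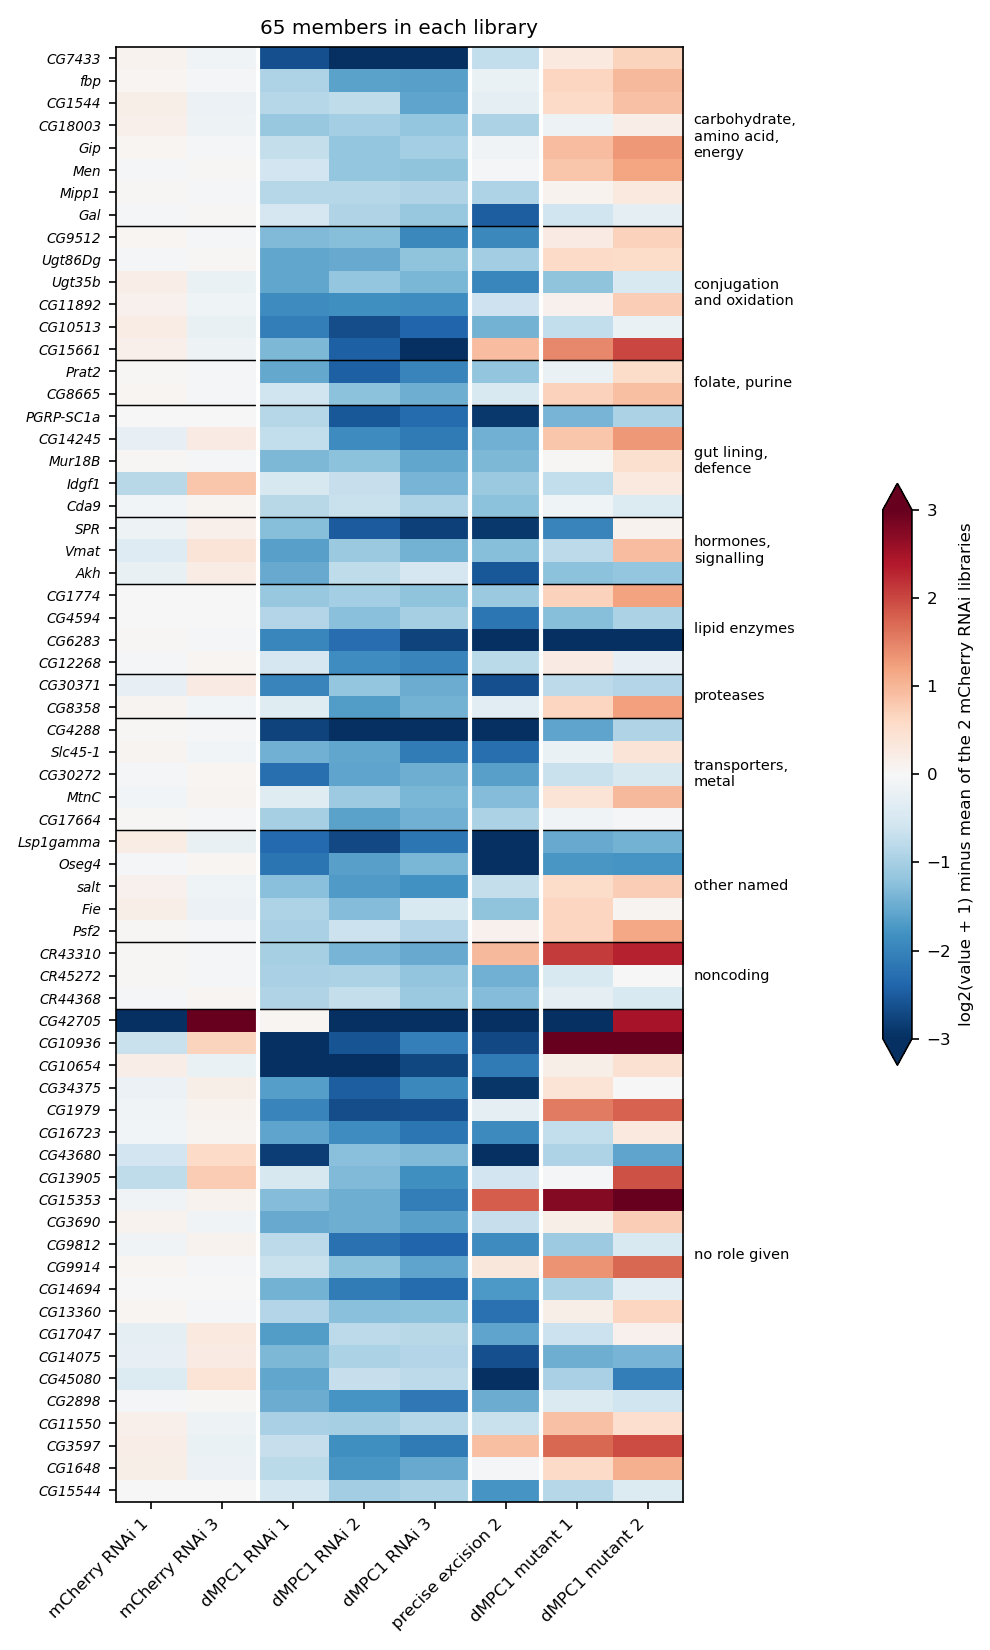
Heat map of the 65 members (rows, grouped by role) in the 8 libraries (columns); colour is log2(value + 1) minus the mean of the 2 *mCherry* RNAi libraries, cut at 3 in each direction. The RNAi columns are mostly blue, the precise excision column is below both *mCherry* libraries in 55 rows, and the mutant columns are above them in 27 and below them in 21.

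Enzymes of carbohydrate, amino acid and energy metabolism made up 8 members, with RNAi differences from -3.14 to -0.83 and mutant differences from 0.97 to 2.05. *CG7433*, the GABA transaminase gene *Gabat*, had 2038 and 1779 in *mCherry* RNAi, 305, 162 and 177 in *dMPC1* RNAi, 1137 in precise excision and 2325 and 3013 in mutants. Its 3 RNAi libraries were far below every other library, and only *CG42705* and *CG4288* had a lower RNAi difference than its -3.14. *fbp*, which encodes the gluconeogenic enzyme fructose-1,6-bisphosphatase, had 707 and 654, then 359, 222 and 219.8 with *dMPC1* RNAi, 592 in precise excision and 1060 and 1345 in mutants. *Men*, which encodes NADP-dependent malic enzyme, had 4169 and 4407 in *mCherry* RNAi, 2882, 1915 and 1844 in *dMPC1* RNAi, 4211 in precise excision and 7632 and 9777 in mutants. For *fbp*, *Men* and *Gip*, a gene of the hydroxypyruvate isomerase family, the precise excision value was close to or not far below the *mCherry* values, so the mutants were the highest of all libraries. *Gip* reached 2531 and 3262 in the mutants, where *CG2909* on the opposite strand had 192 and 180.

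*Gal*, which encodes a beta-galactosidase, followed the other order. It had 3188 and 3308 in *mCherry* RNAi, 2298, 1730 and 1467 in *dMPC1* RNAi, 583 in precise excision and 2131 and 2713 in mutants. The precise excision library was the lowest of all 8, and both mutants stayed under both *mCherry* libraries. *Mipp1*, an inositol polyphosphate phosphatase gene, differed little among replicates, with 3514 and 3353, then 1901, 1883 and 1825 with *dMPC1* RNAi, 1793 in precise excision and 3693 and 4234 in mutants. The 2 remaining genes, *CG18003* (hydroxyacid oxidase, *Hao*) and *CG1544* (a 2-oxoglutarate dehydrogenase E1 relative), had RNAi differences of -1.12 and -1.04 and mutant differences of 0.97 and 1.00.

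*Gal* and *Men* belong to wider lists of related genes. Of 16 other sugar-digesting enzymes tested in each experiment, 1 was called higher and 3 lower with RNAi (median log2 difference -0.25), where 7.03% and 6.71% of all genes tested were called higher and lower. In mutants 4 were higher and 4 lower (median -0.63), where 1.31% and 2.39% of all genes were. The alpha-glucosidase gene *tobi* rose in mutants by 4.27 ± 0.44 (SE, log2, limma adjusted p = 0.0015), whereas the alpha-mannosidase genes *CG9466* and *CG9468* fell with RNAi, by 1.98 ± 0.24 and 1.47 ± 0.25 (limma adjusted p = 0.0017 and 0.0059). Of 19 other genes of sugar sensing and the starvation response, 9 fell and 2 rose with RNAi (median -0.83), and 1 fell and 0 rose in mutants (median 0.23). Among them *Mio*, whose product is the fly relative of the mammalian sugar sensor ChREBP, had an RNAi change of -1.41 ± 0.09 (limma adjusted p = 0.00021), and *daw*, an activin-like ligand, one of -3.73 ± 0.31 (limma adjusted p = 0.0005). In mutants *daw* was lower by 1.00 ± 0.21 on the log2 scale, with a limma adjusted p of 0.032, which misses the threshold.

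Lipid enzymes numbered 4. *CG6283*, a lipase gene, had 6565 and 6177 in *mCherry* RNAi, 1638, 1299 and 934 in *dMPC1* RNAi, 352 in precise excision and 679 and 746 in mutants. No other member had mutants so far below *mCherry* (log2 difference -3.16), and they were higher only than the precise excision value of 352. *CG1774*, an acyl-CoA thioesterase gene, behaved differently, with 1041 and 1051 in *mCherry* RNAi, 472, 514 and 453 in *dMPC1* RNAi, 486 in precise excision and 1684 and 2402 in mutants. Both mutants exceeded every other library. *CG4594*, of the enoyl-CoA isomerase family, and *CG12268*, a fatty acyl-CoA reductase gene, had RNAi differences of -1.03 and -1.28 and mutant differences of 1.06 and 0.84. In the wider list of lipases and sterol and fat uptake, 13 of 29 other genes fell and 3 rose with RNAi (median -0.82), among them the perilipin genes *Lsd-1* and *Lsd-2*, which fell by 1.49 ± 0.09 and 1.02 ± 0.08 (limma adjusted p = 0.00021 and 0.00033). In mutants 5 of 30 fell and 0 rose (median -0.45). *CG17192*, a lipase gene close to *CG6283* on 3R, fell in both experiments, by 2.42 ± 0.19 with RNAi and 2.88 ± 0.32 in mutants (limma adjusted p = 0.00042 and 0.0021). On the other side of *CG6283*, *CG6277* and *CG6271* had RNAi differences of -0.99 and -0.88 and mutant differences of 0.30 and 0.55. Both thus passed only the RNAi limit.

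Folate and purine metabolism was represented by *CG8665*, the 10-formyltetrahydrofolate dehydrogenase gene, and *Prat2*, which encodes the enzyme of the opening step of purine synthesis. *Prat2* had 134 and 129, then 44.8, 23.0 and 32.7 with *dMPC1* RNAi, 57.0 in precise excision and 115 and 193 in mutants, with every RNAi library under every other library. *CG8665* had 482 and 443, then 305, 195 and 167 with *dMPC1* RNAi, 335 in precise excision and 741 and 866 in mutants.

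Conjugation and oxidation enzymes made up 6 members. *CG9512*, a gene of the GMC oxidoreductase family, had 4014 and 3753 in *mCherry* RNAi, 1540, 1604 and 1011 in *dMPC1* RNAi, 1010 in precise excision and 4583 and 6295 in mutants. RNAi replicate 3 and the precise excision library were equally low. *Ugt86Dg* and *Ugt35b* encode UDP-glycosyltransferases, which attach sugars to small lipophilic molecules. *Ugt86Dg* had 115 and 119.6, then 39.3, 40.3 and 49.8 with *dMPC1* RNAi, 56.0 in precise excision and 175 and 173 in mutants, and *Ugt35b* had 2365 and 1797, then 695, 925 and 794 with *dMPC1* RNAi, 526 in precise excision and 892 and 1492 in mutants. The mutants exceeded the *mCherry* libraries for the former and stayed below them for the latter. *CG15661*, the related *Ugt49C1*, had the deeper RNAi difference (-2.10) and one of the smallest mutant differences (0.81). Among 25 other UDP-glycosyltransferases and esterases 4 rose and 4 fell with RNAi (median -0.12), and among 26 in mutants 0 rose and 3 fell (median -0.02). *Ugt86Di* rose with RNAi by 2.67 ± 0.25 and in mutants fell by 2.10 ± 0.33 on the log2 scale (limma adjusted p = 0.00076 and 0.0094). This is the mirror of the pattern of the members *Ugt86Dg*, *Ugt35b* and *CG15661*, which other relatives did not share, such as *Ugt86Da* (-0.04 and 0.04).

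*CG10513* and *CG11892* encode proteins of the ecdysteroid kinase-like family. *CG11892* had 15226 and 12643 in *mCherry* RNAi, 3759, 3902 and 3809 in *dMPC1* RNAi, 9010 in precise excision and 15192 and 22970 in mutants. The 3 RNAi libraries were nearly equal, and mutant replicate 1 matched *mCherry* replicate 1. *CG10513* had 9175 and 6632, then 1846, 1224 and 1493 with *dMPC1* RNAi, 2930 in precise excision and 4645 and 6762 in mutants. These genes lie on arm 3R with *CG10514*, of the same family, as the only measured gene between them (order from Ensembl release 115, BDGP6). *CG10514* had 9734 and 8469 in *mCherry* RNAi, 2234, 2469 and 2504 in *dMPC1* RNAi, 4962 in precise excision and 5850 and 8913 in mutants, an RNAi difference of -1.92 and a mutant difference of 0.57, so it missed only the mutant limit. The next gene on the other side of *CG11892*, *CG31300*, had -0.78 and 0.19, and *CG11878*, next to *CG10513*, was higher in both experiments (0.91 and 0.64). The pseudogene *CR43310*, a member, is separated from *CG10513* by 3 measured genes, and its neighbour *CR13656* had -1.19 and 0.45.

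Transporters and metal binding gave 5 members. *CG4288*, of the major facilitator family (*MFS9*), had 545 and 515 in *mCherry* RNAi, 75.9, 49.0 and 49.8 in *dMPC1* RNAi, 51.6 in precise excision and 176 and 284 in mutants. It was among the members lowest relative to *mCherry* in the RNAi and the precise excision libraries alike, and the mutants stayed below both *mCherry* libraries. *Slc45-1*, a sugar transporter gene, had 662 and 588 in *mCherry* RNAi, 229, 212 and 145 in *dMPC1* RNAi, 129 in precise excision and 544 and 823 in mutants. *CG30272* (*MFS1*) had 2293 and 2466 in *mCherry* RNAi, 498, 787 and 859 in *dMPC1* RNAi, 774 in precise excision and 1493 and 1712 in mutants. For *Slc45-1* the mutants spanned the *mCherry* values, and for *CG30272* they stayed below them. *CG17664* (*Eglp2*), an entomoglyceroporin of the aquaporin family, had 2059 and 1982, then 1016, 664 and 744 with *dMPC1* RNAi, 1050 in precise excision and 1867 and 1976 in mutants. Of 53 other solute carriers and transporters, 11 fell and 0 rose with RNAi (median -0.36), and of 54 in mutants 9 fell and 1 rose (median -0.09). *CG9825* fell in both, by 2.27 ± 0.09 and 2.14 ± 0.13 on the log2 scale (limma adjusted p = 4.8e-05 and 0.00013), and the cotransporter gene *Ncc69* rose in mutants by 1.26 ± 0.13 (limma adjusted p = 0.0015).

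*MtnC* encodes a metallothionein, a small protein that binds copper and zinc. It had 4562 and 5125 in *mCherry* RNAi, 3769, 2261 and 1874 in *dMPC1* RNAi, 1950 in precise excision and 6448 and 9424 in mutants. RNAi replicate 1 lay closer to the controls than the other 2. None of 4 relatives passed both limits: the RNAi and mutant differences were -1.15 and -0.15 for *MtnA*, which passed the RNAi limit, -0.50 and -0.49 for *MtnB*, 0.67 and -0.50 for *MtnD*, and -0.10 and 0.40 for *MtnE*. *CG4288* lies among these genes on 3R, between *MtnB* and *MtnE*.

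Genes of the gut lining and of defence made up 5 members. *Mur18B*, a mucin-related gene, was the most abundant member, with 59671 and 56934 in *mCherry* RNAi, 22897, 24890 and 19840 in *dMPC1* RNAi, 22841 in precise excision and 59740 and 81633 in mutants. Its mean was 36100.5 normalised reads per kb of exon in *mCherry* RNAi and 43769 in mutants, against medians over the annotated members of 274 and 358. The next highest per kb in *mCherry* RNAi were *CG45080* (31641) and *MtnC* (18075). *CG14245*, which encodes a protein with chitin-binding domains, had 2089 and 2947 in *mCherry* RNAi, 1484, 671 and 567 in *dMPC1* RNAi, 908 in precise excision and 4416 and 6145 in mutants. Both mutants lay above all other libraries for *CG14245*, and *mCherry* replicate 3 was above replicate 1. *Cda9*, a chitin deacetylase gene, had 429.6 and 479, then 256, 284 and 240.2 with *dMPC1* RNAi, 193 in precise excision and 414 and 339 in mutants. *Idgf1*, of the chitinase-like growth factor family, had 320.0 and 1019 in *mCherry* RNAi, 409.8, 353 and 218 in *dMPC1* RNAi, 263 in precise excision and 341 and 705 in mutants. For *Idgf1*, *mCherry* replicate 1 lay below RNAi replicates 1 and 2, so these groups overlapped. *Idgf2* (-0.43 and 0.07) and *Idgf3* (0.09 and 0.58) did not pass either limit. Of 27 other peritrophic matrix and chitin genes, 4 rose and 2 fell with RNAi (median -0.19) and 0 rose and 4 fell in mutants (median -0.15). *Cht9*, a chitinase gene, changed by -3.73 ± 0.12 and -3.45 ± 0.17 (limma adjusted p = 2.2e-05 and 7.5e-05).

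*PGRP-SC1a* encodes a secreted peptidoglycan recognition protein with amidase activity, which degrades bacterial cell wall. It had 624 and 626 in *mCherry* RNAi, 348, 106 and 125 in *dMPC1* RNAi, 82.9 in precise excision and 236 and 322 in mutants. RNAi replicate 1 was about 3 times as high as the other 2 RNAi libraries. Its near-identical copy *PGRP-SC1b*, with which reads may be shared, had 401 and 477 in *mCherry* RNAi, 298, 105 and 86.6 in *dMPC1* RNAi, 198 in precise excision and 233 and 294 in mutants, which gave differences of -1.42 and 0.41, so the share of either copy is uncertain. Of the other immune genes, 6 of 25 rose and 0 fell with RNAi (median 0.00), and 4 of 28 rose and 2 fell in mutants (median 0.21). *Drsl2* changed by 5.69 ± 0.61 with RNAi and -6.49 ± 0.63 in mutants (limma adjusted p = 0.0011 and 0.0012), and the defensin gene *Def* rose in mutants by 2.54 ± 0.22 (limma adjusted p = 0.00066).

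Hormone and signalling genes numbered 3. *Akh* encodes adipokinetic hormone, which mobilises stored fat and sugar and is made in the corpora cardiaca, an endocrine gland that sits at the front of the gut and can come away with it. *Akh* had 395 and 539 in *mCherry* RNAi, 161, 274 and 326 in *dMPC1* RNAi, 78.5 in precise excision and 195 and 205 in mutants. All RNAi libraries were below both *mCherry* libraries, but the precise excision library was lower still, and both mutants were above RNAi replicate 1 and below RNAi replicates 2 and 3. The list of 7 proventriculus and crop genes, from the neighbouring part of the gut, summed to 9402 to 10407, 5637 to 6961, 13447 and 7408 to 9672 in the same order of groups. Most of this was *Gs2*, and the other 6 summed to 1955 to 1980, 1679 to 1836, 2397 and 2081 to 2778, with the control between the mutants. The part of these tissues in the values of *Akh* was not tested. *SPR*, the sex peptide receptor gene, had 77.8 and 95.6 in *mCherry* RNAi, 34.8, 14.4 and 11.4 in *dMPC1* RNAi, 10.8 in precise excision and 21.3 and 92.4 in mutants. Mutant replicate 1 was below RNAi replicate 1 and mutant replicate 2 lay between the *mCherry* values, and exons of *frma* lie on the opposite strand. *Vmat*, the vesicular monoamine transporter gene, had 23.0 and 39.5, then 9.15, 13.4 and 10.6 with *dMPC1* RNAi, 11.8 in precise excision and 17.0 and 58.2 in mutants, all low values.

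**Figure D3:**
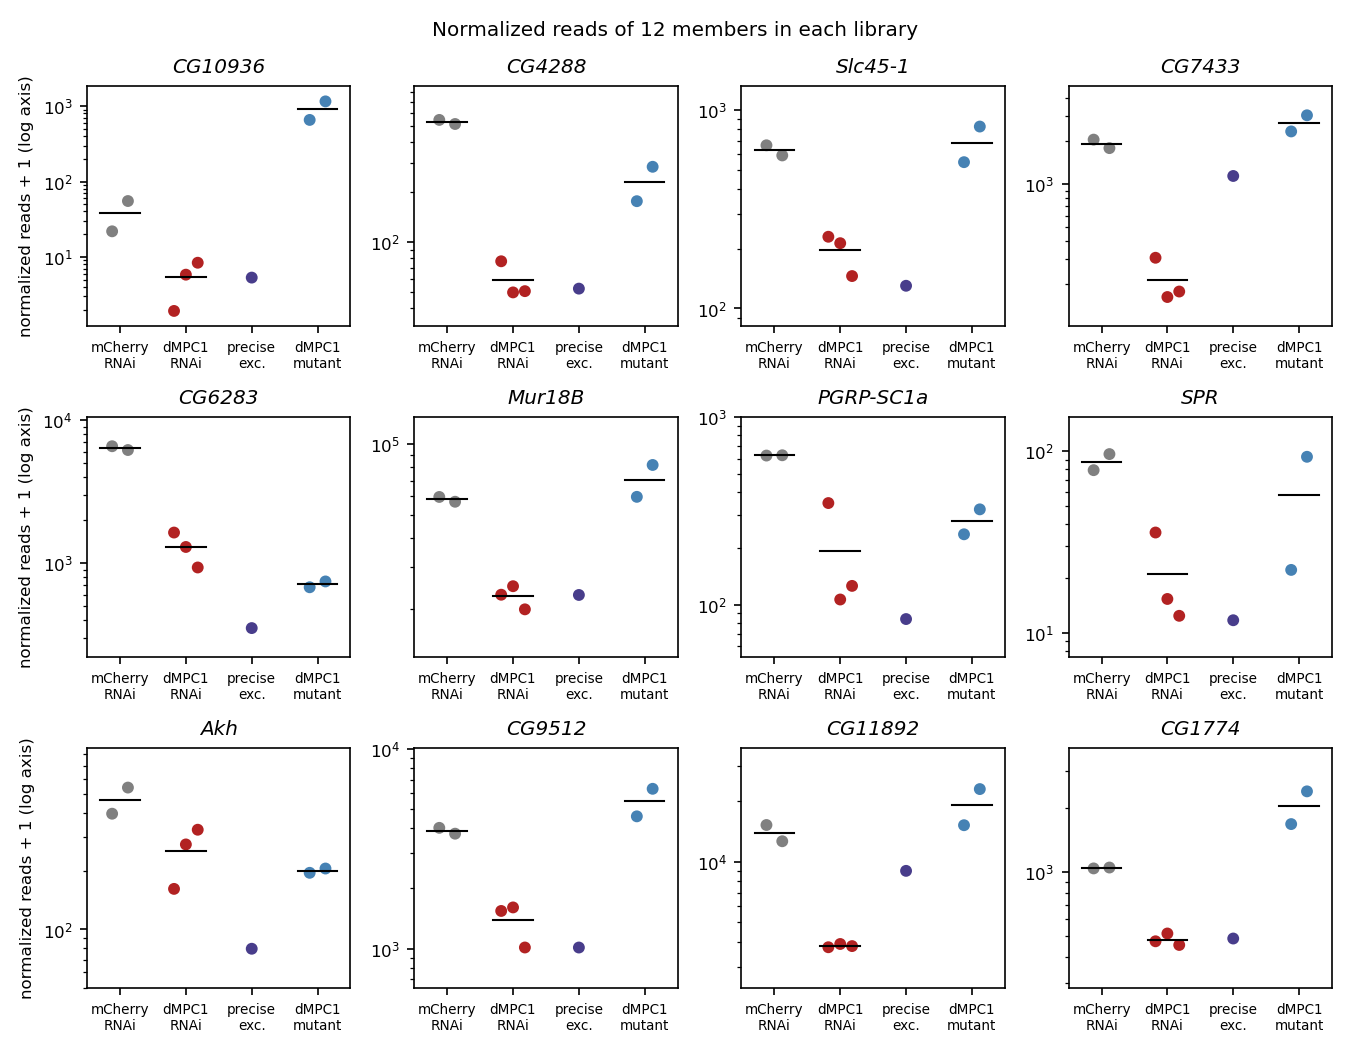
Normalised reads plus 1 of 12 members on log axes, 1 point for each library, with black bars at the means of groups of 2 or 3; the axis range differs between panels. By mean, the mutants are the highest group for *CG10936*, *Slc45-1*, *CG7433*, *Mur18B*, *CG9512*, *CG11892* and *CG1774*, and *CG6283* is highest in *mCherry* RNAi, where it had 6565 and 6177.

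Among proteases, *CG30371*, a serine protease gene, had 726 and 1030 in *mCherry* RNAi, 219.5, 386 and 308 in *dMPC1* RNAi, 139 in precise excision and 503 and 467 in mutants, and *CG8358* (*Nepl12*, neprilysin-like) had 164 and 147, then 119.8, 48.0 and 57.2 with *dMPC1* RNAi, 124 in precise excision and 245 and 364 in mutants. *CG30371* was lowest in the precise excision library and *CG8358* in RNAi replicates 2 and 3. *Lsp1gamma*, which encodes a larval serum storage protein made in the fat body, had 165 and 123 in *mCherry* RNAi, 27.4, 21.1 and 31.0 in *dMPC1* RNAi, 11.8 in precise excision and 49.4 and 53.0 in mutants. In the fat body list, 4 of 10 other genes fell and 0 rose with RNAi (median -0.83), and 6 of 11 fell and 2 rose in mutants (median -1.84). *Lsp2*, another larval serum protein gene, had 0 and 0 in *mCherry* RNAi, 5.49, 8.64 and 5.72 in *dMPC1* RNAi, 8.61 in precise excision and 56.9 and 82.1 in mutants. The yolk protein gene *Yp1* fell by 1.73 ± 0.17 and 1.84 ± 0.17 on the log2 scale (limma adjusted p = 0.00088 and 0.00078). The summed level of that list was 26928 to 35766 in *mCherry* RNAi, 9950 to 13661 in *dMPC1* RNAi, 48141 in precise excision and 10481 to 11927 in mutants. Its part in the RNAi difference of *Lsp1gamma* was not tested.

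*salt* had 7391 and 6256 in *mCherry* RNAi, 2859, 2093 and 1927 in *dMPC1* RNAi, 4169 in precise excision and 9983 and 11383 in mutants. It and *CG17664* are on the list of Malpighian tubule genes, since the tubules join the gut at the hindgut and may stay attached. Of the 22 other genes of that list, 2 rose and 4 fell with RNAi (median -0.37), and 2 rose and 1 fell in mutants (median -0.03). Their summed level was 37001 to 41028 in *mCherry* RNAi, 28999 to 33841 in *dMPC1* RNAi, 34280 in precise excision and 34828 to 40179 in mutants. *Uro*, urate oxidase and specific to tubules, was at 4880 and 5396 in *mCherry* RNAi, 2299, 5327 and 4930 in *dMPC1* RNAi, 4424 in precise excision and 3482 and 3752 in mutants. The summed list was thus below both *mCherry* values in all RNAi libraries and above the control in both mutants, while *Uro* was lower in both mutants than in their control. The part of these levels in the values of *salt* and *CG17664* was not tested. *Oseg4*, an intraflagellar transport gene that shares exon sequence on the same strand with *drpr*, had 671 and 724, then 152, 226 and 270.4 with *dMPC1* RNAi, 73.2 in precise excision and 207 and 204 in mutants, while *drpr* was higher with RNAi (0.54) and lower in mutants (-0.62). *Psf2*, a subunit of the GINS complex of DNA replication, had 201 and 190.3, then 98.8, 124 and 106 with *dMPC1* RNAi, 214 in precise excision and 307 and 441 in mutants.

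The largest differences belonged to genes with no role given here. *CG10936* had 20.8 and 54.1 in *mCherry* RNAi, 0.91, 4.80 and 7.35 in *dMPC1* RNAi, 4.30 in precise excision and 656 and 1156 in mutants. Both mutants were more than 10 times as high as any other library, and the value of RNAi replicate 1 was a single read. *CG42705* was first by rank but rested on 1 library in each experiment, with 0 and 177 in *mCherry* RNAi, 12.8, 0 and 0 in *dMPC1* RNAi, 0 in precise excision and 0 and 73.6 in mutants. Without *mCherry* replicate 3 its RNAi difference was 2.40, the opposite sign. *CG10654* had 69.0 and 52.0 in *mCherry* RNAi, 5.49, 5.76 and 8.17 in *dMPC1* RNAi, 12.9 in precise excision and 67.5 and 82.1 in mutants. For *CG10654* the 3 RNAi libraries and the precise excision library were low and the 4 others similar, whereas *vih* on its opposite strand stayed between 188 and 267 in all libraries.

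*CG1979* had 32.9 and 38.5 in *mCherry* RNAi, 8.23, 4.80 and 4.90 in *dMPC1* RNAi, 29.1 in precise excision and 106 and 123 in mutants. Mutants were well above all other libraries, and the precise excision value resembled *mCherry*. *CG34375* had 27.4 and 35.3, then 9.15, 4.80 and 7.35 with *dMPC1* RNAi, 3.23 in precise excision and 42 and 30.8 in mutants. *CG16723* had 249.9 and 277, then 87.8, 72.0 and 58.0 with *dMPC1* RNAi, 68.9 in precise excision and 156 and 322 in mutants. In both, mutant and *mCherry* values overlapped. *CG43680* had 448 and 987 in *mCherry* RNAi, 92.4, 277 and 263 in *dMPC1* RNAi, 74.2 in precise excision and 349 and 222 in mutants. The precise excision library was again the lowest. Of the next in rank without a role, *CG13905* had 1529 and 4378 in *mCherry* RNAi, 1840, 1037 and 719.8 in *dMPC1* RNAi, 1748 in precise excision and 2516 and 9691 in mutants. *mCherry* replicate 1 of *CG13905* was below RNAi replicate 1, so those groups overlapped. The remaining members without a role had RNAi differences between -1.89 (*CG14694*) and -0.83 (*CG15544*) and mutant differences between 0.87 (*CG1648*) and 2.68 (*CG13360*).

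Only 6 members were higher in the precise excision library than in both *mCherry* libraries: *CR43310*, *CG15353*, *CG9914*, *CG3597*, *CG15661* and *Psf2*. *CG15353* had 28.5 and 33.3 in *mCherry* RNAi, 11.9, 10.6 and 6.54 in *dMPC1* RNAi, 111 in precise excision and 212 and 296 in mutants. *CG9914* had 3291 and 3050, then 2003, 1340 and 1051 with *dMPC1* RNAi, 3983 in precise excision and 8082 and 10526 in mutants. *CG3597* had 101 and 76.9, then 54.0, 24.0 and 19.6 with *dMPC1* RNAi, 167 in precise excision and 295 and 342 in mutants. In these 6 the mutants exceeded every other library, so the RNAi libraries formed the bottom of the range and the 2 controls lay between. *CG13360*, by contrast, had 1083 and 985, then 564, 436 and 440.4 with *dMPC1* RNAi, 216 in precise excision and 1167 and 1610 in mutants, with the precise excision library as the lowest, and *tw* on its opposite strand was below 50 in every library. *CG3690* had 2955 and 2593, then 968, 1005 and 895 with *dMPC1* RNAi, 1714 in precise excision and 3108 and 4651 in mutants, and *CG9812* had 92.1 and 105, then 56.7, 20.2 and 18 with *dMPC1* RNAi, 25.8 in precise excision and 45.7 and 71.8 in mutants. For *CG9812* the mutants did not reach either *mCherry* library. *Fie* had 116 and 91.5, then 54.0, 41.3 and 75.2 with *dMPC1* RNAi, 44.1 in precise excision and 163 and 109 in mutants, where the highest RNAi library was close to the lower *mCherry* value.

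The RNAi replicates did not contribute equally. Replicate 1 was the highest of the 3 RNAi libraries in 38 of 65 members (58.5%) and in 41.6% of all genes tested, and replicate 3 was the lowest in 32 members (49.2%) and in 32.8% of all genes. The median of replicate 1 minus the mean of the other 2 was 0.44 on the log2 scale in members and 0.01 over all genes. With replicate 1 alone, all 65 members were below the *mCherry* mean and 51 were at the limit, with a median difference of -1.29. Without it the median was -1.52 and 62 were at the limit. In the mutants, replicate 2 was above replicate 1 in 53 members (81.5%) and in 55.3% of all genes, with a median gap of 0.37 against 0.03. Replicate 2 also had the fewest reads of the 8 libraries and replicate 1 the most. Each mutant taken alone reached the limit in 52 members. In *mCherry* RNAi, replicate 3 was above replicate 1 in 31 of 65.

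**Figure D4:**
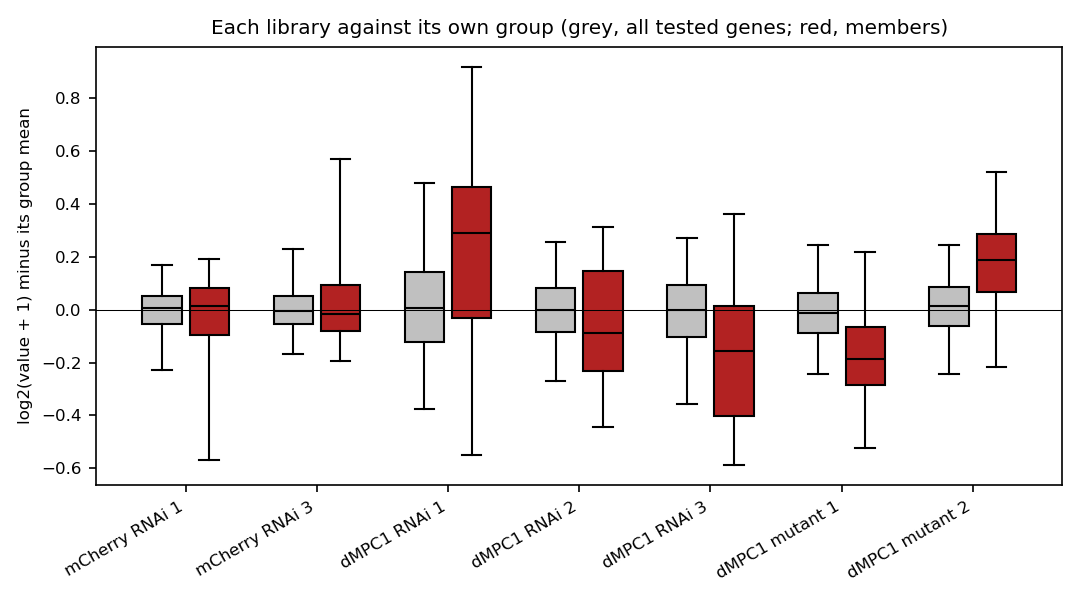
Deviation of each library from its group mean, in log2(value + 1), for all 8613 genes tested in both experiments (grey) and the 65 members (red); boxes show the middle 50% with the median, and whiskers the 5th and 95th percentiles. The members' median deviation was 0.29 in *dMPC1* RNAi replicate 1 and 0.19 in mutant replicate 2, against 0.00 and 0.01 over all genes.

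Within the gene set, 2 patterns of replicates stood side by side. In the 38 members with RNAi replicate 1 highest, mutant replicate 2 exceeded replicate 1 in 35. *CG7433*, *fbp*, *Men*, *CG6283* and *PGRP-SC1a* were of this kind. In 15 members (23.1%) RNAi replicate 1 was the lowest, an order less frequent than in all genes tested in both experiments (39.8%). The *mCherry* replicate 3 was above replicate 1 in 47.4% of all these genes and in 11 of the 15 members: *CG10936*, *CG43680*, *CG30371*, *Oseg4*, *Ugt86Dg*, *Vmat*, *CG17047*, *CG14075*, *CG30272*, *CG45080* and *Akh*. These 11 were picked out after their values were seen. *CG45080* had 6417 and 11302 in *mCherry* RNAi, 2868, 5240 and 4912 in *dMPC1* RNAi, 1004 in precise excision and 4319 and 2025 in mutants, and *CG14075* had 399 and 567, then 186, 247 and 257 with *dMPC1* RNAi, 75.3 in precise excision and 173 and 179.6 in mutants. As for *Akh*, the precise excision library was below every RNAi library for *CG43680*, *CG30371*, *Oseg4*, *CG14075* and *CG45080*, and the mutants were below both *mCherry* libraries. Over the 15 members, the precise excision library was below both *mCherry* libraries in 14, with a median log2 difference of -2.14, against -1.25 over the 38. Mutant replicate 2 exceeded replicate 1 in 10 of the 15, so this order was the more frequent in both sets.

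**Figure D5:**
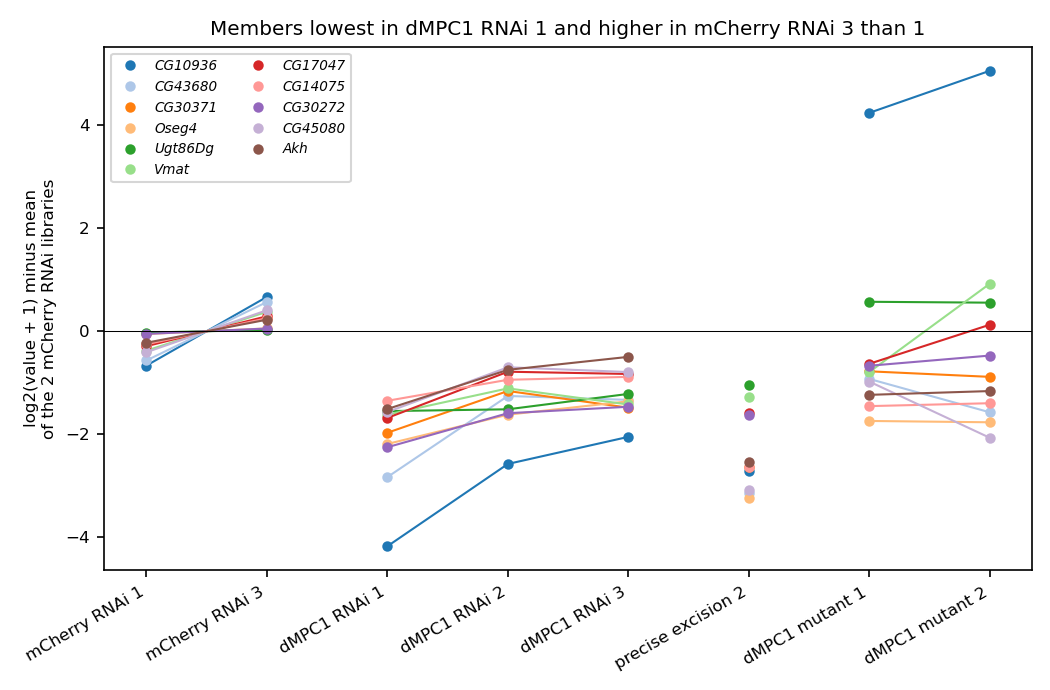
The 11 members that were lowest in *dMPC1* RNAi replicate 1 and higher in *mCherry* RNAi replicate 3 than in replicate 1, as log2(value + 1) minus the mean of the 2 *mCherry* libraries in each library (x axis); lines only join the values of 1 gene within a group. Most points of the mutants lie below the *mCherry* mean; *CG10936*, with 656 and 1156 normalised reads, *Ugt86Dg*, with 175 and 173, and replicate 2 of *Vmat* and *CG17047* lie above it.

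By annotation 62 members were protein coding, 2 were long noncoding RNAs and 1 was a pseudogene. *CR43310* had 71.2 and 68.6, then 34.8, 25.9 and 23.7 with *dMPC1* RNAi, 138 in precise excision and 302 and 352 in mutants. *CR45272* had 269 and 255, then 132, 134 and 115 with *dMPC1* RNAi, 95.8 in precise excision and 189 and 262 in mutants. *CR44368* ranged from 31.2 to 81.1. All 3 lie on the opposite strand of exons of another measured gene, and both noncoding RNAs are antisense to genes in the current annotation. In all, 10 members overlapped exons of a measured gene on the opposite strand: *CG10654*, *SPR*, *salt*, *CR43310*, *CG7433*, *CG13360*, *CR45272*, *Gip*, *CR44368* and *Gal*. Whether counting used strand is not given in the sources used here, and without strand the reads of both genes cannot be told apart. *Tom20*, opposite *CG7433*, ranged from 715 to 910, and *CG1910*, opposite *salt*, from 1132 to 1384. *tw*, opposite *CG13360*, had the order of the members, with differences of -0.51 and 0.41 that reached neither limit.

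Of the 64 members found in the annotation, 22 were on arm 3R (33.8% of the 65, against 24.9% of all genes tested), 14 on 2R, 12 on 3L, 8 on 2L, 8 on X and 0 on the fourth chromosome. Their median exon length was 1612 bases against 2078 over all genes tested. Apart from the kinase-like genes, *Ugt86Dg* and *Ugt35b* were separated only by *Ugt86De*, which had -0.67 and -0.73, and *Ugt35a* on the other side had -0.69 and 0.05. *CR45272* and *Cda9* flank *Spn53F* and *Amy-d*. The amylase genes *Amy-p* and *Amy-d* had 27485 and 25417 in *mCherry* RNAi, 29420, 24393 and 19683 in *dMPC1* RNAi, 13064 in precise excision and 33278 and 47210 in mutants and 2351 and 8640 in *mCherry* RNAi, 9955, 9237 and 7172 in *dMPC1* RNAi, 11707 in precise excision and 22423 and 29344 in mutants, so that *Amy-p* was higher in mutants (1.62) without being lower by the limit with RNAi (-0.11).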

How the data were processed

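RNA from dissected intestines was sequenced with 50-cycle single reads. The submitters' processing notes name Novoalign, DESeq and the genome build dm3, and the study's methods name USeq. The sources used here give no versions, no counting options and nothing on strand. Each deposited value is a signal made by the authors for 1 gene in 1 library, its read count divided by that library's size factor. All libraries were scaled together, since the base mean column is the same in both tables. Whole reads could be recovered for 100% of the values (tolerance 0.001), and reads in genes ranged from 7362983 to 21918521. Columns with the authors' own fold changes and p-values, and the other deposited files, which hold subsets chosen by those values, gene names and ontology terms, were not used.

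Genes with a mean of at least 10 in an experiment were tested with limma 3.58.1 in R 4.3.3 (trend) on log2(value + 1), so a fold change understates that of low genes. Each experiment was fitted alone, without a block. Calls needed a p adjusted by Benjamini and Hochberg's method over all genes tested no higher than 0.01 and a log2 difference of at least 0.6. The residual degrees of freedom were 3 (RNAi) and 1 (mutants), the latter from the 2 mutant libraries alone, and the single control was taken to have their spread. The labels do not say that replicates came from separate cultures of flies, so p-values measure only the spread between these libraries. The limma fits were also run on simulated counts with the same spread for every gene and library. Such counts cannot check the error of the single control or the calls of genes at low levels. Alternatives were other pseudocounts (0.5 and 10), no filter, other scalings, edgeR 4.0.16 and DESeq2 1.42.0 on the recovered reads, a fit of all libraries, a replicate block and each library left out in turn.

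The members, and the gene lists and roles, were chosen with earlier results of these data known. Up to 40 members with the largest smaller difference of both experiments could be named. Values in every library were given for the first 12, for members on a pathway list and for those nearest the limits where shown, and others were named for their role after their values were seen. From each list, other genes were named among the 4 with the smallest p. Arms, neighbours, lengths and exon overlaps came from Ensembl release 115 (BDGP6). Since the deposited files use dm3, no coordinates are given, and no sequences were used here. Markers of the testis and accessory gland were not found in the tables (0 of 25 entries).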

Additional observations from a re-analysis of the deposited data

Results flagged for a closer look

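In 62 members every *dMPC1* RNAi library was below both *mCherry* RNAi libraries while both mutant libraries were above their control, so the 2 experiments moved in opposite directions in every library. This is what the rule selected, and the difference between the experiments was not tested.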

How the results depend on the processing

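The number of genes that met the rule was 65. It was 135 with no minimum level and 117 with a limit of 0.6, both holding all 65, and between 44 and 83 under the other pseudocounts, minimum levels, limits and scalings. Leaving out 1 library at a time gave 55 to 80 genes, of which 51 to 64 were among the 65. Only 38 of the 65 met the rule in all 7 of these settings. *Cda9*, *Gal*, *MtnC* and *Psf2* met it in 4 of the 7, the fewest. Without *dMPC1* RNAi replicate 1 there were 80, of which 62 were shared. The RNAi difference of *CG42705* ran from -6.48 without *dMPC1* RNAi replicate 1 to 2.40, the opposite sign, without *mCherry* replicate 3.

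Calls depended on the libraries and the tool. With RNAi, 627 genes rose and 599 fell. Leaving out 1 library at a time gave 128 to 895 higher and 59 to 1040 lower, where the lowest counts came without *mCherry* replicate 1 and the highest without *dMPC1* RNAi replicate 1. The members called lower then ranged from 4 to 57 instead of 36. In mutants, 115 rose and 210 fell, against 33 and 99 with edgeR and 47 rising in the fit of all libraries. Leaving out either mutant left 1 library on each side, so the spread was taken from the fit of all libraries. This gave 18 to 28 higher and 73 to 79 lower, against 47 and 147 with all libraries in that fit. Members called higher were 3 to 8, against 11 in that fit. The 28 of the main fit came from another model, so the gap to 28 does not measure the loss of a library. With no filter on low values limma called 0 higher and 0 lower, with 1782 genes at an unadjusted p under 0.05. edgeR and DESeq2 were not run without a filter. The cause was not tested. With the replicate block, for the replicate numbers 1 and 3 that both RNAi groups share, 392 rose and 447 fell. The deviations of same-numbered libraries had correlations of -0.23 and -0.16, so the numbers were not taken to pair libraries. No paired analysis was possible for the mutants because they share fewer than 2 numbers with their control. The single control of the mutants could not be left out, so its weight was not measured.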
